A study of Rattus norvegicus with 9 samples.

Results

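The normal diet rat liver is the baseline of a series on fatty liver disease, and its members are the 3 libraries labelled normal diet, of 9 libraries in all. All rats were male and of the strain labelled SD. The other 6 libraries are 3 from rats on a high-fat diet for 8 weeks, a diet given to induce fatty liver, and 3 from rats treated with SCL (Smilax china L., a plant), for which the labels name no diet. Liver RNA was sequenced as read counts per gene. The source labels call the normal diet libraries wt and the high-fat diet libraries model, and no allele or other agent is named for any group. The labels do not say whether each library is its own animal, and errors and p-values therefore measure a spread between samples that may be technical. The labels give neither the time of day nor the feeding state at collection.

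The liver makes most proteins of blood plasma, keeps blood glucose steady by storing and releasing glycogen and by making new glucose, turns ammonia into urea, and clears drugs and steroids. Most of its work is done by hepatocytes, whose enzymes often come from gene families in which 1 member is the liver form and the others serve muscle, brain or other tissues. In rats, several liver genes of the cytochrome P450 family also differ between the sexes under the control of growth hormone.

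The 3 normal diet libraries held 14998661, 15205176 and 13846295 reads in genes. Mitochondrial genome transcripts took 4.63%, 3.85% and 11.2% of the reads of replicates 1, 2 and 3, so replicate 3 stood apart from the other two, and the Wilson 95% interval of each of the 9 shares was at most 0.028 percentage points to either side, for counting error only. The mean share was 6.54% ± 4.01 (SD, n = 3) on the normal diet and 22.5% ± 19.3 (SD, n = 6) in the rest of the series, a difference of -15.9 percentage points, which did not pass a two-sided exact permutation test (p = 0.143, adjusted p = 0.357 over 3 such tests, with 0.0238 the smallest p that 3 against 6 libraries allow). Fewer cells of a type and less RNA per cell cannot be told apart in whole liver.

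Plasma proteins led the normal diet liver. Alb, the gene of albumin, the main plasma protein, had 62968, 50343 and 60721 FPKM in replicates 1, 2 and 3, where FPKM is the read count scaled for gene length and for the library's total, so that levels can be compared between genes. Its mean of 58011 ± 6735 FPKM (SD, n = 3) was the highest of any gene outside the mitochondrial genome. Behind it, the apolipoprotein Apoe averaged 11214 ± 1486 FPKM, the haemoglobin-binding Hp 11151 ± 1063 FPKM and the thyroxine and retinol carrier Ttr 11081 ± 2334 FPKM (SD, n = 3 each). The iron carrier Tf had 9267 ± 1225 FPKM, the protease inhibitor Serpina1 8184 ± 560.5 FPKM and the vitamin D carrier Gc 6647 ± 467.2 FPKM (SD, n = 3 each). The retinol carrier Rbp4, the haem carrier Hpx, the fetuin Ahsg, the lipoprotein proteins Apoc3, Apoc1 and Apoh, the alpha-1-microglobulin precursor Ambp, the fibrinogen chain Fgg and the protease inhibitor Serpina3c lay between 3640 and 6956 FPKM. Fabp1, which carries fatty acids inside the hepatocyte, had 2339, 5885 and 4446 FPKM in replicates 1, 2 and 3, so replicate 1 was lowest.

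Of the other 3 names among the 20, Rup2 had 9509 ± 1583 FPKM (SD, n = 3) and LOC680406 4016 ± 1189 FPKM (SD, n = 3). AABR07069878.1, which the tables used here do not pair with a gene, had 26760, 35723 and 25858 FPKM but only 0.256% of reads, because its listed length is 87 bases. The 20 genes, AABR07069878.1 among them, held 37.9%, 37.1% and 38.6% of the FPKM outside the mitochondrial genome in replicates 1, 2 and 3. The spread was under 2 percentage points. The 100 most abundant genes held 56.3%, 55.7% and 56.3%. In all 20 genes the values of the normal diet libraries overlapped those of the other 6, and 0 of the 20 had an adjusted p under 0.05 or an unadjusted p under 0.05 by edgeR's quasi-likelihood test. Over all genes tested, 3.22% did not overlap and 0.0332% were called higher, so a count of 0 in 20 is near that background. Their lowest edgeR adjusted p was 0.677.

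**Figure D1:**
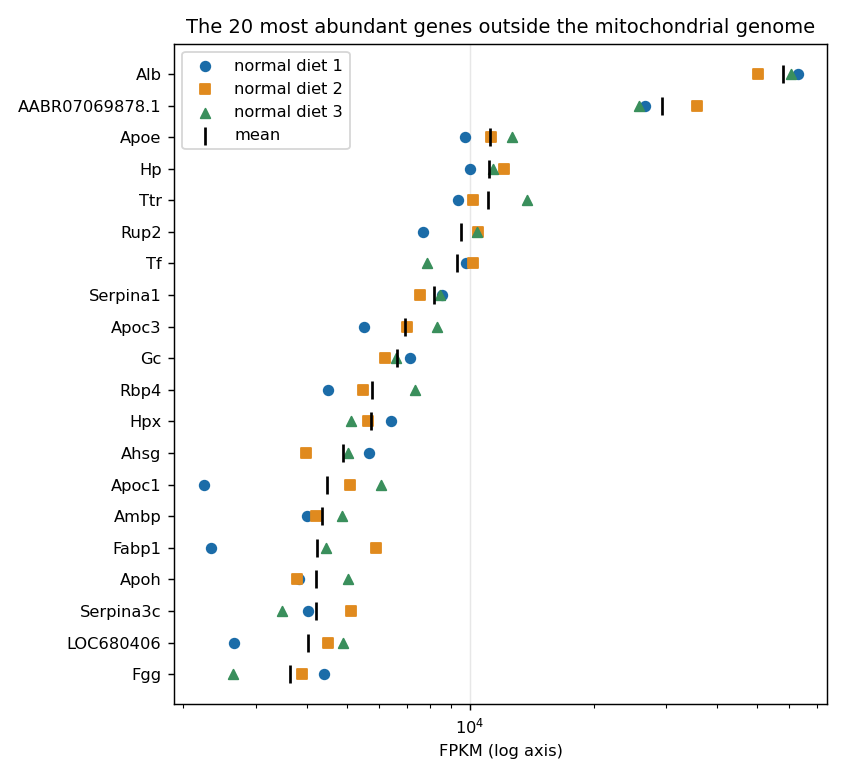
FPKM (log axis) of the 20 most abundant genes outside the mitochondrial genome in each normal diet library, with the mean as a black tick. Alb stands at 50343 to 62968 FPKM, and the genes from Apoe down lie at or below 13739 FPKM.

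The promoters of Alb and Gc are shown as those of the most abundant members of the albumin family, and those of 3 genes of the cytochrome P450 2C family because their levels, given with the P450 genes, lie far apart. Each is 250 bases before to 50 after the gene's start, from RefSeq on rat build GRCr8, 5′ to 3′, and capitals mark matches on either strand to TATAAA (the TATA box core), CCAAT, GTTAATNAT (an HNF1-type motif) or TTGCNNAA (a CEBP-type motif), whose letters were chosen after the Alb promoter had been read. Alb lies at chr14:17906930-17907229 on the minus strand, and Gc at chr14:18916005-18916304 on the plus strand.
Alb: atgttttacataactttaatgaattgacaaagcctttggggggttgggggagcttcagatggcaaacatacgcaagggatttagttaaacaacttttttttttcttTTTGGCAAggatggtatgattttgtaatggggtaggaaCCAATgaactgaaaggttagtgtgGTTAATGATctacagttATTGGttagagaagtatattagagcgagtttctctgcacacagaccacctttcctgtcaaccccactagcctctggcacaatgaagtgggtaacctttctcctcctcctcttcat
Gc: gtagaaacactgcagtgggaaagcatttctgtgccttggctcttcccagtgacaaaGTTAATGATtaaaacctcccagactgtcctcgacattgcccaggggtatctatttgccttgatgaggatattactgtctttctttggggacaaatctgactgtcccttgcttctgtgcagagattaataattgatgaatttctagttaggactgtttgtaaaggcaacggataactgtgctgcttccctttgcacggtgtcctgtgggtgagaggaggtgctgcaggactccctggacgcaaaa
The cytochrome P450 promoters lie at chr1:246174966-246175265 on the plus strand (Cyp2c11), chr1:248787139-248787438 on the minus strand (Cyp2c13) and chr1:248676985-248677284 on the minus strand (Cyp2c12).
Cyp2c11: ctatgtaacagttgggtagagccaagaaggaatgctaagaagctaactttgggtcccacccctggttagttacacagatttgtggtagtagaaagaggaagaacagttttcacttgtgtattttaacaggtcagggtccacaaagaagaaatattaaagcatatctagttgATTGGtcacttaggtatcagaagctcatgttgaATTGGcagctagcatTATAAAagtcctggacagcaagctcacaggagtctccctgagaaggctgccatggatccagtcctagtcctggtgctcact
Cyp2c13: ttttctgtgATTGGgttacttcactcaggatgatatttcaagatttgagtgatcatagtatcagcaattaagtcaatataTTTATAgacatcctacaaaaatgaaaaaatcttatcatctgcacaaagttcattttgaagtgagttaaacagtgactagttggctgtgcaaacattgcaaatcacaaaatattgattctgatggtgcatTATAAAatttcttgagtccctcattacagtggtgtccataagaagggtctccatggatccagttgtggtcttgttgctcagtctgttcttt
Cyp2c12: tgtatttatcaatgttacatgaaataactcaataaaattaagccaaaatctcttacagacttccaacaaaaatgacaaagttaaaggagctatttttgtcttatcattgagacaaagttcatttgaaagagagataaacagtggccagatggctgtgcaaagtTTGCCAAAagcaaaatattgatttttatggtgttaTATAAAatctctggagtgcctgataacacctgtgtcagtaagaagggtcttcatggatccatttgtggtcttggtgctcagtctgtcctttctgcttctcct
The HNF1-type letters stood in 0.747% of 33469 promoters of this length and in 3 of the 18 promoters found for 15 of the 20 most abundant genes. The TATA core stood in 14.2% of all promoters and in 4 of those 18, CCAAT in 37.5% and in 11 of 18, and the CEBP-type letters in 10.6% and in 6 of 18. Alb, read before the letters were chosen, is among the HNF1-type, CCAAT and CEBP-type matches. Those counts are thus partly fixed in advance. A match is a description of letters and says nothing of binding. The Cyp2c13 and Cyp2c12 windows were identical at 67.5% of aligned columns (224 of 332), against 55.9% for Cyp2c11 and Cyp2c13.

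Within gene families the liver form was the highest member in most cases. Of 63 families with a named liver form and at least 2 members in the table, the liver form had the highest mean FPKM in 53, and in 29 it held at least 90% of the family's summed FPKM in all 3 normal diet libraries. The families were chosen with earlier results of these data known, so these counts describe the chosen families and are no independent support. Glucose-making enzymes were among the most one-sided. Pck1, which makes phosphoenolpyruvate for new glucose, had 1849, 2130 and 998.3 FPKM and 99.45% to 99.78% of its family. Fbp1, the fructose bisphosphatase of the liver, held at least 99.87% of its pair. In nitrogen handling, Arg1, the last enzyme of the urea cycle, averaged 563 ± 149 FPKM (SD, n = 3) against 0.240 ± 0.101 FPKM for Arg2. For bile acid uptake Slc10a1 had 383 ± 36.1 FPKM (SD, n = 3) and at least 99.8% of its pair.

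**Figure D2:**
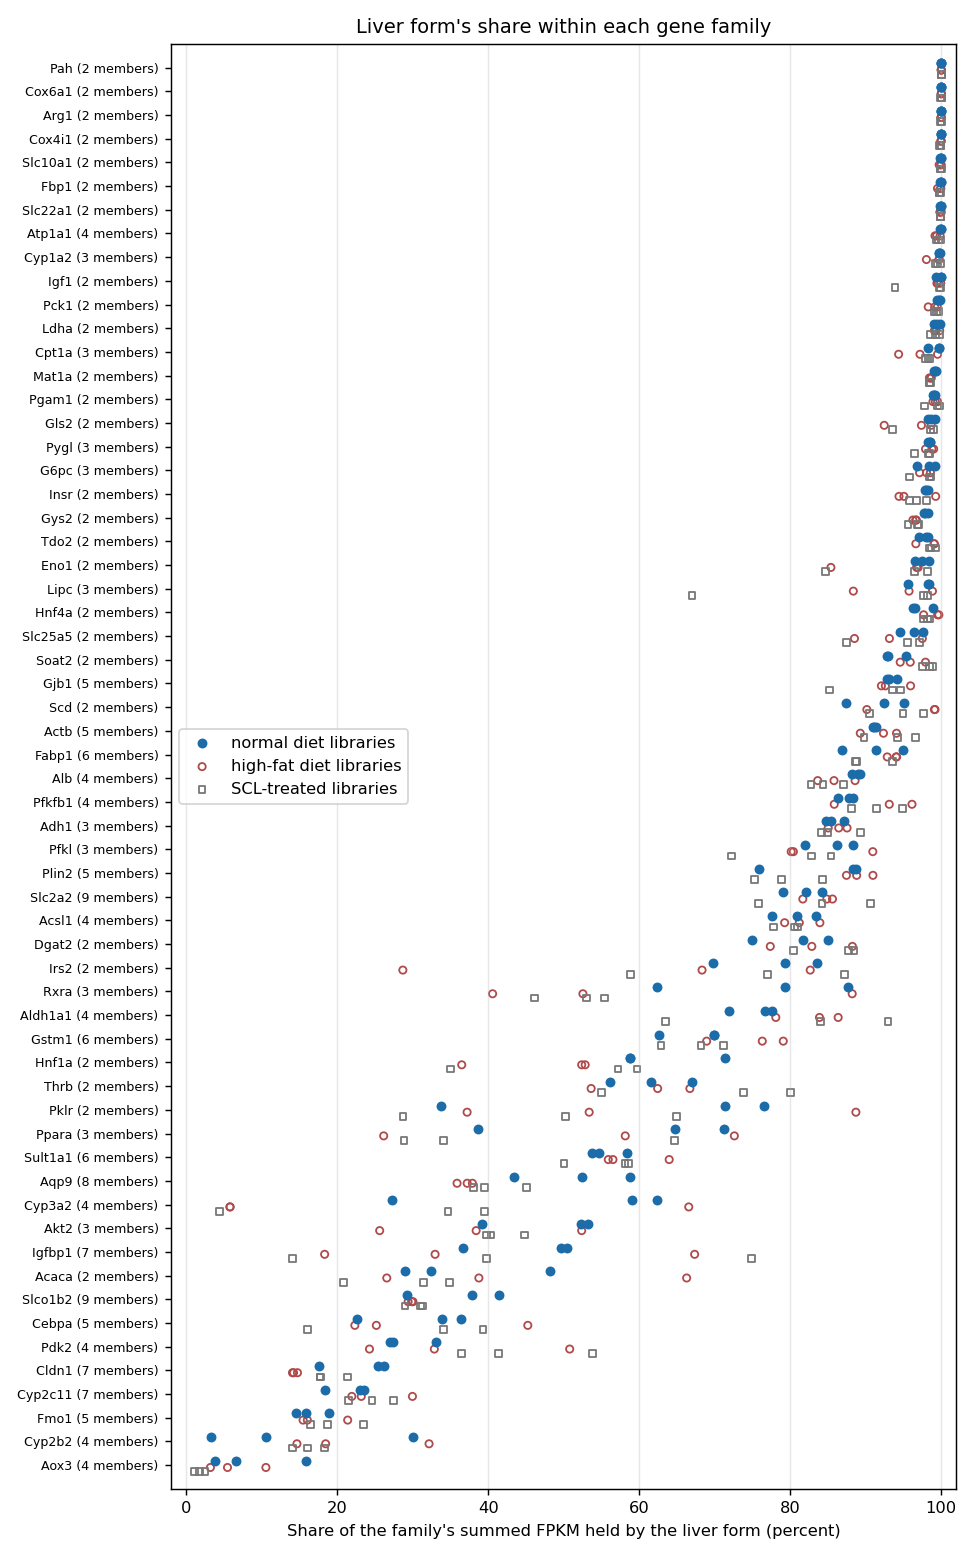
Share of each family's summed FPKM held by its liver form (percent), 1 row for each of 60 families, for the normal diet libraries (filled), the high-fat diet libraries (open circles) and the SCL-treated libraries (open squares). The upper rows sit near 100%, and the normal diet dots of Cyp2c11 sit at 18.3% to 23.6%.

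In the other 10 families another member was higher. Pdk4, a kinase that shuts off pyruvate oxidation, had 144, 128 and 52.5 FPKM, above the liver form Pdk2 at 63.7, 73.7 and 25.2 FPKM. In fatty acid synthesis and its control, the carboxylase Acacb averaged 4.36 ± 1.97 FPKM and Acaca 2.71 ± 1.64 FPKM (SD, n = 3 each). The ranges overlap, but Acacb was above Acaca within each library, at 4.51, 6.25 and 2.32 FPKM against 4.20, 2.99 and 0.946 FPKM. Among the regulators, Cebpb had 253, 206 and 306 FPKM, above Cebpa at 164, 123 and 98.4 FPKM in each library. Akt1 and Akt2, kinases of insulin signalling, averaged 27.3 ± 0.882 and 26.5 ± 7.08 FPKM (SD, n = 3 each) and were not separated. Cldn3, Cldn2 and Cldn1 of the tight junction averaged 45.3, 32.3 and 32.2 FPKM, and their order differed between libraries. The highest member differed between the 3 normal diet libraries in 10 of 77 families with at least 2 members. One of these was pyruvate kinase, where the liver form Pklr held 76.5% and 71.3% in replicates 1 and 2 but 33.8% in replicate 3.

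The cytochrome P450 enzymes, which oxidise drugs, steroids and fatty acids, were led by different forms from those fixed as the liver form in 2 families. In the 2C family Cyp2c13 had 1092, 787.7 and 1010 FPKM, Cyp2c23 averaged 704 ± 79.4 FPKM and Cyp2c11, the main form known from male rats, had 708.7, 478.0 and 723.7 FPKM. Cyp2c12, known as the female form, had 46.3, 17.4 and 19.4 FPKM on the normal diet, against 3.73, 3.28 and 4.83 FPKM on the high-fat diet and 14.7, 4.25 and 14.1 FPKM with SCL. All 3 normal diet libraries lay above all others for Cyp2c12, by 1.91 on the log2 scale (SE 0.40), but the edgeR adjusted p was 0.287. Groups failed to overlap, in either direction, for 3.22% of all genes tested. For Cyp2c12, DESeq2 gave a difference of 1.92 and an adjusted p of 0.0073. Of 16 refits that changed a setting or left out libraries, DESeq2 was the only 1 that called Cyp2c12. Cyp2c12 held 1.54%, 0.667% and 0.614% of its family on the normal diet. Prlr, the prolactin receptor, was also above the others in all 3 normal diet libraries, at 4.04, 17.4 and 4.98 FPKM against 0.455, 0.502 and 0.210 FPKM on the high-fat diet and 0, 0 and 1.60 FPKM with SCL (log2 difference 4.06, SE 0.99, edgeR adjusted p = 0.509). Without SCL-treated replicate 3, which leaves the SCL-treated libraries at 0 reads, the fitted difference was 7.91 with an edgeR adjusted p of 0.0306. Prlr was called in this 1 of the 16 refits only, and DESeq2 gave it an adjusted p of 0.40. Cyp3a2 had 1207, 1214 and 330.0 FPKM, so replicate 3 was far below the other two, and it held 62.4%, 59.0% and 27.2% of its family. Cyp1a2, which oxidises caffeine and aromatic amines, held at least 99.69% of its family and averaged 325 ± 108 FPKM (SD, n = 3). Members of these families share long stretches of sequence, and reads shared between near-identical copies could be split by the counting, so their split is uncertain.

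Markers of cells other than hepatocytes were present at lower levels. All 12 hepatocyte markers listed were above 1 FPKM, as a check of the labelled tissue. Of 12 Kupffer cell and macrophage markers 11 had a mean of at least 1 FPKM, led by Clec4f with 128, 141 and 79.3 FPKM and the complement chain C1qa with 101, 138 and 84.3 FPKM. Their summed level was 569, 628 and 416 FPKM on the normal diet, against 359, 442 and 181 FPKM on the high-fat diet and 467, 143 and 441 FPKM with SCL. The lowest sums, 181 and 143 FPKM, were those of high-fat diet replicate 3 and SCL-treated replicate 2, in which mitochondrial transcripts took 44.1% and 49.0% of reads, and 0 of the 11 markers tested were called by edgeR, where 0.0332% of all genes were called higher. All 8 of the sinusoidal endothelial markers in the table were above 1 FPKM, with Clec4g at 18.7, 29.7 and 17.8 FPKM. Of 8 cholangiocyte markers 4 reached 1 FPKM, and the highest, Epcam, had 7.58, 11.7 and 10.5 FPKM. None of the 5 muscle, 5 kidney and 3 lung markers in the table reached a mean of 1 FPKM. Of the exocrine pancreas markers 1 of 6 did, the elastase Cela1 at 22.4, 22.2 and 44.4 FPKM. Of the brain markers 1 of 7 did (Mbp, at most 2.87 FPKM), and of the intestine markers 1 of 3 (Fabp2, at most 3.63 FPKM). Haemoglobin genes from blood were present, with Hbb at 225, 91.4 and 167 FPKM.

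At the detection limit, 646 of 15929 genes (4.06%) had 0 reads in all 3 normal diet libraries, and 1994 (12.5%) had at most 3 reads over the 3 libraries together. Deposited values list 15929 genes for the normal and high-fat diet libraries and 15819 for the SCL-treated and high-fat diet libraries, with 15565 in both. A gene missing from the first list is not counted, so these shares may understate silent genes. A gene at 0 here may be listed only through its high-fat diet reads, which was not tested. A count of 0 over the 44050132 reads allows up to 0.0681 FPKM for a gene of 1000 bases. At least 1 read in every library was found for 13205 genes. Of the 646 genes, 385 had at most 3 reads over the other 6 libraries too, and the most was 39 reads for Eda2r, a receptor of the TNF family, 29 of them in high-fat diet replicate 1. Behind it came Cyp4f18 with 32 and Gpr27 with 30 reads. The other genes of the 10 with the most reads, from Rab27b to Ccdc190, had fewer. Genes with a mean under 1 FPKM took 0.419% of reads. Levels of 10 FPKM or more were reached by 3825 genes, 100 FPKM by 647 and 1000 FPKM by 66, and those 66, which include mitochondrial transcripts, held 54.2%, 52.7% and 58.0% of summed FPKM.

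**Figure D3:**
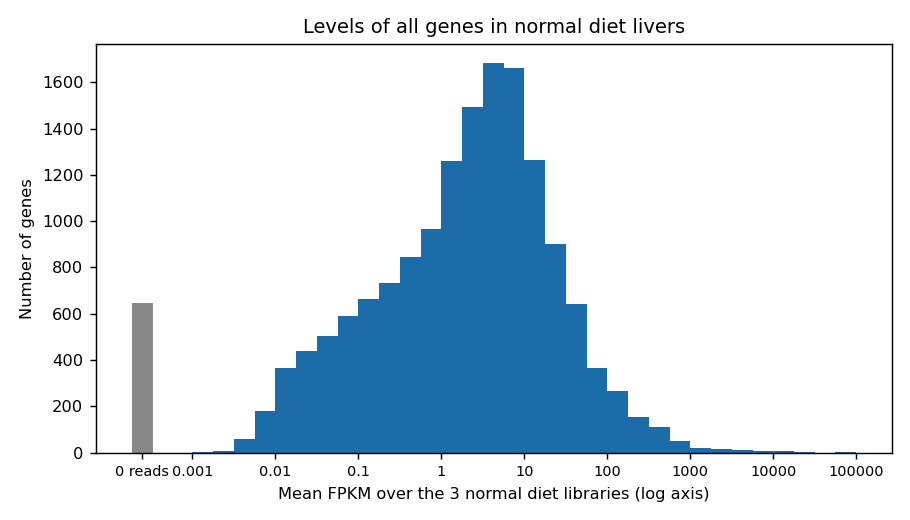
Number of genes by mean FPKM over the 3 normal diet libraries (log axis), with the 646 genes at 0 reads as a grey bar. The bulk lies between 0.1 and 100 FPKM.

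The 3 normal diet libraries differed among themselves, and replicate 3 was most often the library apart. Among 6568 genes with a mean of at least 10 CPM (TMM-scaled counts scaled to the library's total), the median range between highest and lowest library was 0.488 on the log2 scale, and 978 genes (14.9%) ranged over more than 2-fold. In 749 of those 978 replicate 3 was the library farthest from the middle one, in 559 as the lowest and in 190 as the highest. Without replicate 3, 116 genes ranged over more than 2-fold. The 559 genes where replicate 3 was lowest had a median length of 3191 bases, and the 190 where it was highest 982 bases. By length class, the median log2 ratio of replicate 3 to replicate 1 was 0.44 in the shortest of 4 classes and -0.37 in the longest, and that of replicate 3 to replicate 2 was 0.28 and -0.29. Between replicates 2 and 1 it was 0.13 and -0.08. The part of RNA quality or of library construction in this was not tested. The biological coefficient of variation, edgeR's measure of spread beyond counting noise, was 30.4% within the normal diet group, 49.7% in the high-fat diet group and 42.6% in the SCL-treated group. Without replicate 3 it was 18.9%.

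**Figure D4:**
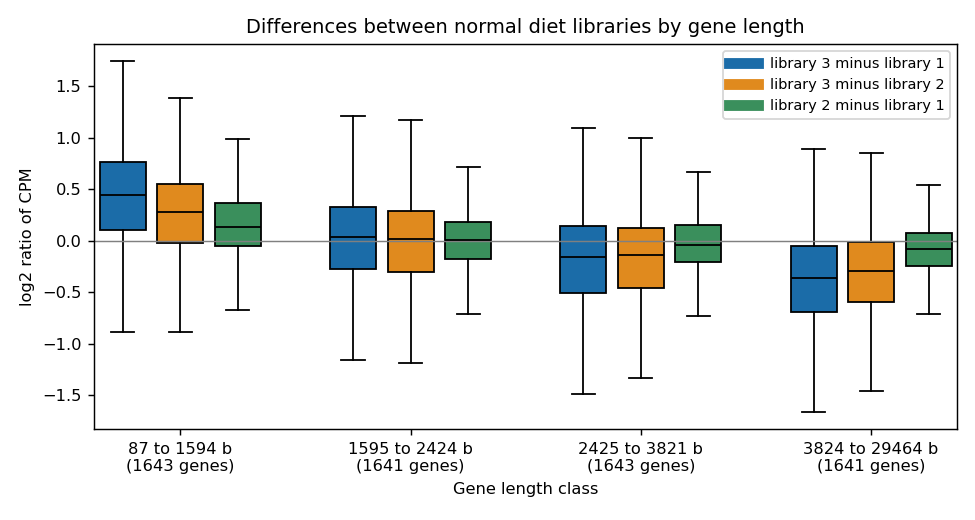
log2 ratio of CPM between pairs of normal diet libraries by gene length class; boxes are quartiles, the line is the median and whiskers reach at most 1.5 times the box. The shortest class lies above 0 and the longest below it for both ratios with replicate 3.

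The genes with the widest range were led by Fam111a, a serine protease, with 47.0, 12.2 and 0.229 CPM in replicates 1, 2 and 3. Ces2e, a carboxylesterase, had 42.7, 0.376 and 0.306 CPM, so among the normal diet libraries it was high in replicate 1 alone. It had 23.1, 0 and 2.39 FPKM on the high-fat diet and 12.96, 0.137 and 19.6 FPKM with SCL. There it was again high in some libraries and near 0 in others. CPM is not scaled for gene length, so these CPM and FPKM values cannot be set against each other. Slpi, a protease inhibitor, had 16.1, 0.751 and 39.5 CPM. RT1-CE16, a class I histocompatibility gene, was high in replicate 2, at 5.75, 88.9 and 4.59 CPM, and so was the collagen receptor Ddr1, at 2.05, 31.1 and 2.37. The amino acid transporter Slc7a2 was low in replicate 3, at 189.4, 143.8 and 15.2 CPM. At the other end, Tcp11l2 had 35.1, 35.1 and 35.0 CPM, and the transcription factor Gtf2i had 95.5, 95.3 and 95.2.

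Set against the rest of the series, few genes passed the test. Of 12041 genes, 4 (0.0332%) were higher in the normal diet libraries at an edgeR adjusted p under 0.05 and 0 were lower, while 756 had an unadjusted p under 0.05 (340 higher, 416 lower). That last count ran from 256 without normal diet replicate 2 and 323 without normal diet replicate 1 to 2660 without high-fat diet replicate 1. DESeq2 called 29 higher and 44 lower. By edgeR 1 gene was called without normal diet replicate 2, without SCL-treated replicate 1 or without the 2 libraries with over 40% mitochondrial reads, 2 without high-fat diet replicate 3 and 8 without normal diet replicate 3. All 4 belong to cholesterol synthesis. Tm7sf2, a sterol reductase, had 48.5, 74.0 and 37.1 FPKM on the normal diet, against 5.98, 2.98 and 2.09 FPKM on the high-fat diet and 5.85, 3.15 and 3.95 FPKM with SCL (log2 difference 3.60, SE 0.28, edgeR adjusted p = 0.000971). It was called in all 16 refits that changed a setting or left out libraries, Cyp51 in 13, Msmo1 in 8 and Sqle in 7. The sterol demethylase Cyp51 had 111, 71.4 and 37.7 FPKM on the normal diet, against 10.4, 7.34 and 4.06 FPKM on the high-fat diet and 9.21, 7.47 and 10.6 FPKM with SCL (log2 difference 3.02, SE 0.32, edgeR adjusted p = 0.00968). The methylsterol oxidase Msmo1 had 60.5, 42.1 and 19.5 FPKM on the normal diet and 2.99 to 9.25 FPKM in the other 6 libraries (log2 difference 2.67, SE 0.34, edgeR adjusted p = 0.0335). The squalene epoxidase Sqle had 23.3, 12.7 and 6.73 FPKM on the normal diet and 0.711 to 2.57 FPKM in the other 6 (log2 difference 3.24, SE 0.42, edgeR adjusted p = 0.0368). In each of the 4, all 3 normal diet libraries lay above all 6 others, and within the normal diet group replicate 3 was the lowest. Over the whole list of 24 cholesterol synthesis genes, 24 had a positive difference with a median of 1.52 on the log2 scale, against -0.02 over all genes tested, and 16 did not overlap between the groups, against 3.22% of all genes. This list was chosen with the rise already known and holds the 4 called genes, so its counts are no independent support. The most abundant member, Hmgcs1, had 254, 187 and 149 FPKM on the normal diet against 43.3 to 117 FPKM in the others (log2 difference 1.10, SE 0.31, edgeR adjusted p = 0.618). The median difference by gene length ran from -0.16 in the shortest of 4 classes to 0.08 in the longest, and the part of gene length in these calls was not tested.

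**Figure D5:**
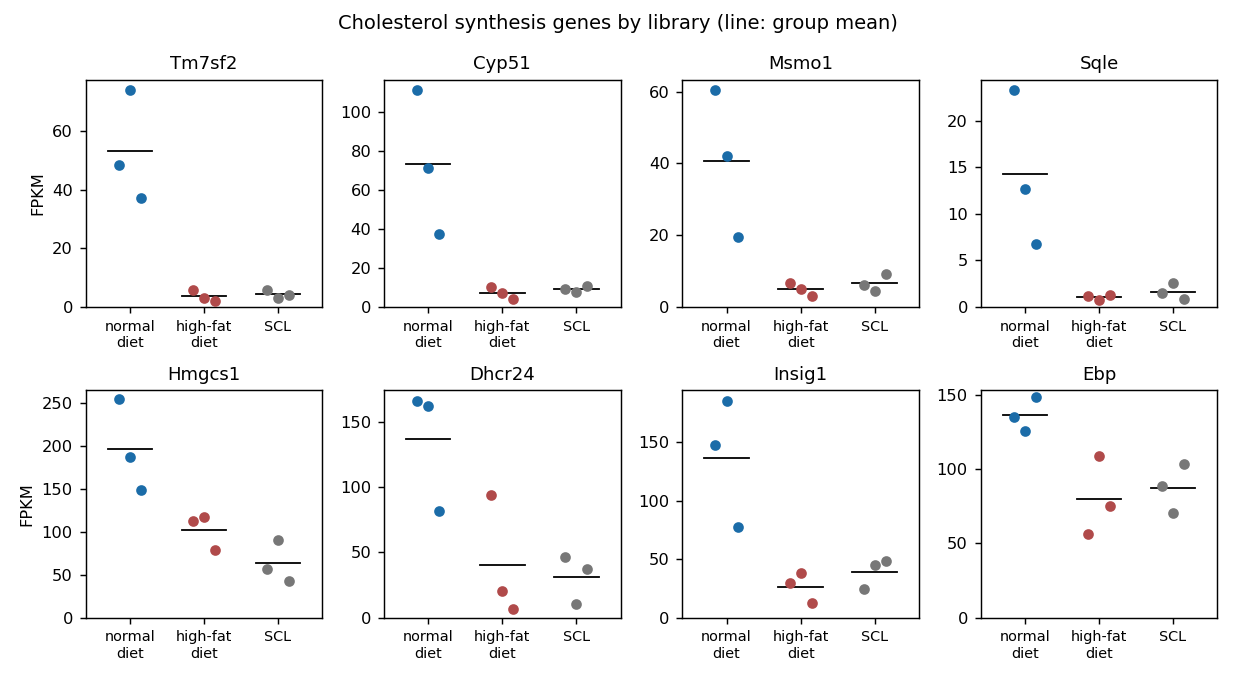
FPKM of 8 cholesterol synthesis genes in each library, with the group mean as a line. For the 4 genes of the upper row, the normal diet points all lie above the points of both other groups.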

How the data were processed

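Liver RNA of 9 rat samples was sequenced after Trizol extraction and NEBNext Ultra library preparation, per the labels' protocols. The authors deposited raw counts per gene and FPKM values, per the file headers. The FPKM of each gene equals its count divided by the gene's length and the table's total, and the lengths recovered from it were whole to within 0.001 bases for 100% of genes. The submitters' processing notes name DESeq2 and the build mm9, a mouse assembly, although the gene names are those of rat: 92.2% of 15929 names were found among the symbols and synonyms of rat RefSeq (GRCr8), so no coordinate is taken from the tables. For the aligner, the counter and the use of strand, the sources used here give nothing.

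The counts of all 9 libraries entered 1 edgeR 4.0.16 fit in R 4.3.3 with group as the only term. filterByExpr at a minimum count of 10 left 12041 genes, which were scaled by TMM. Quasi-likelihood p-values received a Benjamini-Hochberg adjustment, with calls made under 0.05. The contrast was the normal diet minus the mean of the other groups. CPM values use TMM-scaled library sizes. Library shares were compared by exact permutation tests in scipy 1.17.1. Family shares are shares of summed FPKM over members in the table. DESeq2 1.42.0 was an alternative. The edgeR steps were tested on simulated counts. The families, gene lists and groups to name were chosen with earlier results of these data known, and the rise of cholesterol synthesis genes on the normal diet was among these, so it is no independent support. Named genes are the 20 most abundant, the liver form or highest member of each family, the 10 widest and 10 narrowest genes, the 10 genes at 0 reads with most reads elsewhere, up to 4 of each list by level, and the called genes. Values of some genes named by this rule are not reported here. Predicted-locus names outside the 20 most abundant were counted but not named. The 18 deposited columns of size-factor signal and of the authors' own comparisons were not used.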

Additional observations from a re-analysis of the deposited data

How the results depend on the processing

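The 4 genes called against the rest of the series became 73 with DESeq2 (29 higher, 44 lower, all 4 among them), 1 without the 2 libraries with over 40% mitochondrial reads and 2 at an adjusted p under 0.01. Leaving out 1 library gave 1 to 8 calls: 1 without normal diet replicate 2 or SCL-treated replicate 1, 2 without high-fat diet replicate 3 and 8 without normal diet replicate 3. The cause of these shifts was not tested. All 24 cholesterol synthesis genes kept a positive difference in every refit, but the refits share these libraries and this list. Library totals alone moved the median difference of all genes to 0.13 on the log2 scale, from -0.02 with TMM.

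The deviations of same-numbered libraries from their group means correlated between -0.348 and 0.604, which does not decide whether the replicate numbers pair the libraries. A fit with the replicate number as a block called 2 genes. Msmo1 and Sqle were not called in it (adjusted p = 0.0988 each).

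The share of reads in each library's own 100 most abundant genes differed by 4.50 percentage points without mitochondrial transcripts, normal diet minus the rest. It differed by -4.78 with them kept in, and neither difference passed the exact permutation test (p = 0.238 and 0.31). With 2 normal diet libraries against 6, the smallest p rises above the threshold. Genes at the detection limit were 1994 at 3 reads and 3098 at 10 reads. The coefficient of variation ran from 18.9% without replicate 3 to 37.4% without replicate 2. Of the 20 most abundant genes at least 19 stayed among the 20, and the liver form led in 51 families by summed counts and in 53 without any 1 library. At this depth genes of few reads are the least precise.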

Other observations

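Igfbp1 and Cpt1a, known to be high in fasting, were abundant in the normal diet livers, although the labels give no feeding state. Igfbp1, which binds insulin-like growth factors, had 456, 855 and 661 FPKM, against 163, 208 and 502 FPKM on the high-fat diet and 116, 908 and 321 FPKM with SCL, and the groups overlapped. Cpt1a, which admits fatty acids to mitochondria, had 187, 192 and 79.0 FPKM, and replicate 3 was lowest. Of 17 genes on the fasting and feeding list, 16 had a mean of at least 1 FPKM, against 62.3% of all genes. Of these 17 genes 0 were called, where 0.0332% of all genes were called higher. As the list covers both states, these counts do not tell fasted from fed livers.

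Of the cell cycle genes, 5 of 19 in the table had a mean of at least 1 FPKM, led by Pcna, a clamp of DNA replication and repair, at 13.4, 15.6 and 11.1 FPKM. Rrm2, a subunit of the enzyme that makes DNA precursors, had 0 reads in all 3 libraries, which allows up to 0.0581 FPKM. Ciart, a clock repressor, also had 0 reads, which allows up to 0.0392 FPKM.

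Common reference genes varied about as much among the 3 libraries as other genes, with a median range of 0.576 on the log2 scale over the 11 with at least 10 CPM, against 0.488 over 6568 genes. Of the 13 in the table, 4 were highest in replicate 1, 3 in replicate 2 and 6 in replicate 3. Actb had 395, 266 and 296 FPKM. Gapdh had 38.9, 55.5 and 85.1 FPKM and Rplp0 472, 473 and 644 FPKM, with replicate 3 highest for these 2. Ppia had 3.51, 2.11 and 2.87 FPKM, and as it and Gapdh have near-identical copies elsewhere in the genome, reads shared with those copies make both levels uncertain.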
